A study of Mus musculus with 7 samples.

Results

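Ovarian RNA was examined for 9 genes of the smooth muscle contractile apparatus, Acta2, Myh11, Tagln, Cnn1, Des, Actg2, Lmod1, Smtn and Synpo2, and for Sorbs2, which encodes an adaptor protein of the actin cytoskeleton. These 10 genes were taken by name and were found by their GENCODE M21 identifiers among 55487 gene rows, and all 10 were among the 18779 genes that passed the filter on low counts. The libraries came from whole ovaries of C57BL/6J mice, collected at diestrus on postnatal day 60, with 1 library per mouse. The 3 control (CNTR) mice were offspring of dams given PBS. The 4 PAMH F3 mice were third-generation descendants of F0 dams injected with human recombinant AMH (0.12 mg/kg daily) over E16.5 to E18.5 of pregnancy, with no AMH given in later generations. The CNTR mice came from the first generation, so that the lineage of exposure and the generation cannot be told apart. These mice carried no transgene or deletion, and both groups had the same strain background.

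Smooth muscle contracts when myosin filaments pull on thin filaments of actin, after phosphorylation of the myosin light chain. Its contractile genes are classically driven by serum response factor (SRF) with the coactivator myocardin, through a DNA element called the CArG box, and they are switched off together when the cells dedifferentiate. In the ovary, smooth muscle lies in the walls of arteries and veins and in the theca externa around follicles, where contraction is linked to follicle rupture. Any ligament or oviduct left on a dissected ovary brings smooth muscle of its own.

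Acta2 (chromosome 19, minus strand, 34241090 to 34255590, mm10) encodes smooth muscle alpha actin, and Actg2 (chromosome 6, minus strand, 83512905 to 83536265) encodes the gamma actin of visceral smooth muscle. Myh11 (chromosome 16, minus strand, 14194535 to 14291372) encodes the smooth muscle myosin heavy chain. Tagln (chromosome 9, minus strand, 45929619 to 45936058), Cnn1 (chromosome 9, plus strand, 22099216 to 22109630) and Smtn (chromosome 11, minus strand, 3517523 to 3540612) encode the actin-binding proteins transgelin, calponin and smoothelin. Lmod1 (chromosome 1, plus strand, 135324807 to 135368065) encodes leiomodin, which nucleates actin filaments. Des (chromosome 1, plus strand, 75360329 to 75368579) encodes desmin, the muscle intermediate filament protein, and Synpo2 (chromosome 3, minus strand, 123076519 to 123236149) encodes myopodin, a protein of Z-discs and dense bodies. Sorbs2 (chromosome 8, plus strand, 45507788 to 45827906) encodes an adaptor with SH3 domains found at stress fibers and Z-discs, and it is also expressed in epithelial, endothelial and neural cells.

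Promoter windows, from 250 bases before to 50 bases after a transcription start, were given by RefSeq (GRCm38.p6) for 7 of the 10 genes. The windows of Acta2 and Lmod1 are shown because they held near matches to the CArG box, and the outermost of the 3 windows of Sorbs2 is shown because it held none. The CArG box is a 10-base site with a run of A and T between CC and GG. Capitals mark the sites with 1 base departing from it, read on both strands. Positions were counted from the transcription start, and the windows were chr19:34255324-34255623 on the minus strand, chr1:135324563-135324862 on the plus strand and chr8:45507538-45507837 on the plus strand.
Acta2: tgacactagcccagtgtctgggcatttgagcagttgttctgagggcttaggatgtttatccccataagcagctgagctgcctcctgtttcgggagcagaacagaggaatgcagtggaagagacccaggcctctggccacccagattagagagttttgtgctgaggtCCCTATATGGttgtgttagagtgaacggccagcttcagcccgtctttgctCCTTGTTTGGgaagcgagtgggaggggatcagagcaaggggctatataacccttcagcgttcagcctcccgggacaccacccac
Lmod1: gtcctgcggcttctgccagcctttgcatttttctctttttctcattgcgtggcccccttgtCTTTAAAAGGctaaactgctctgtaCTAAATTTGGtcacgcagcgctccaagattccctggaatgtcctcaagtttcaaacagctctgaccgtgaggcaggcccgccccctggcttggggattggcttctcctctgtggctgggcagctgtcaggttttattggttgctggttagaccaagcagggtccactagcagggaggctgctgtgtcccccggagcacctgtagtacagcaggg
Sorbs2: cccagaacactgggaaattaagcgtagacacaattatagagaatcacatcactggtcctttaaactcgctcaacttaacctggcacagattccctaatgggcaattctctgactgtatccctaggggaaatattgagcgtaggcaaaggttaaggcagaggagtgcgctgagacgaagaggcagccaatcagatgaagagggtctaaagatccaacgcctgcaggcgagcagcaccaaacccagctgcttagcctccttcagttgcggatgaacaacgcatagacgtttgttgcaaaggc

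No window of these 7 genes held a CArG box without a departure, which 1.63% of the 32851 windows in the table did. Sites with 1 departure were found in Acta2, where they began at -84 (CCCTATATGG) and -34 (CCTTGTTTGG), and in Lmod1, where they began at -189 (CTTTAAAAGG) and -164 (CTAAATTTGG). Such sites were thus present in 2 of the 9 windows of these genes (22.2%), against 19.9% of all windows, and in none of the 3 windows of Sorbs2. The MCAT motif of TEAD factors (CATTCC, both strands, not overlapping the sites above) was found in the windows of Acta2, Lmod1 and Smtn, against 14.7% of all windows. The windows of Cnn1, Des and Synpo2 held none of these motifs. For Myh11, Tagln and Actg2 no window was used here. A match describes letters only, and CArG boxes outside these 300 bases were not searched.

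The libraries held from 32158174 to 35485021 counts assigned to genes, and each of the 10 genes had between 485 and 29721 counts in each library, so that counting error was small beside the spread between mice. In a library, between 45.8% and 47.5% of the alignments tallied were outside genes, ambiguous or not uniquely aligned, and these were left out. The libraries did not all behave alike. Over all genes, the level in CNTR replicate 2 rose by 0.298 on the log2 scale per 10% GC content, whereas the other libraries had slopes between -0.119 and 0.0452. PAMH F3 replicate 4 and CNTR replicate 1 stood apart in the contractile genes themselves, as described next, and results are given with and without them. Values are CPM, that is counts relative to library size, scaled by TMM factors over all gene rows.

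The 9 contractile genes were detected in every library, and none differed between groups beyond the spread between mice. Acta2, the most abundant, was at 588, 892 and 775 CPM in CNTR replicates 1 to 3 and at 789, 746, 684 and 530 CPM in PAMH F3 replicates 1 to 4. The lowest value was that of PAMH F3 replicate 4 and the next lowest that of CNTR replicate 1, and the groups overlapped (752 ± 153 against 687 ± 113 CPM, SD, n = 3 and 4). Actg2 was at 80.1, 191 and 169 CPM in CNTR and at 128, 163, 125 and 61.4 CPM in PAMH F3. The same 2 libraries were at the bottom, and CNTR replicate 2 was highest for both actins.

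In Myh11 and Lmod1 the same 2 libraries were lowest, over a narrower range. Myh11 was at 223, 289 and 285 CPM in CNTR and at 316, 288, 245 and 187 CPM in PAMH F3, so that the highest and the lowest library were both PAMH F3 libraries. Lmod1 was at 19.3, 24.96 and 27.0 CPM in CNTR and at 25.3, 25.2, 25.0 and 15.2 CPM in PAMH F3. In 3 of the 4 PAMH F3 libraries Lmod1 was nearly the same, and replicate 4 was far below them.

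Tagln was at 464, 625 and 574 CPM in CNTR and at 525, 540, 502 and 343 CPM in PAMH F3. Cnn1 was at 61.8, 141 and 125 CPM in CNTR and at 68.4, 89.3, 92.6 and 35.96 CPM in PAMH F3. Smtn was at 50.8, 92.0 and 64.5 CPM in CNTR and at 57.9, 52.2, 56.9 and 43.0 CPM in PAMH F3. For each of these actin-binding proteins CNTR replicates 2 and 3 lay above all PAMH F3 libraries, while CNTR replicate 1 lay among them. The high Smtn value of CNTR replicate 2 stands beside that library's GC slope, and Smtn has the highest GC content of the 10 transcripts (60.1%). Corrected for GC content and without surrogate variables, the difference between groups in Smtn was -0.16 on the log2 scale, against -0.40 without the correction. In Sorbs2, which has the lowest GC content (37.6%), the same correction changed the difference from -0.43 to -0.50. CNTR replicate 3, also above all PAMH F3 libraries in Smtn, had a GC slope of -0.0175. The part of GC content in the Smtn difference was not tested.

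Des was at 75.7, 138 and 140 CPM in CNTR and at 74.3, 108, 95.6 and 32.3 CPM in PAMH F3, a 4.33-fold range that was the widest of the 10 genes. Synpo2 was at 31.7, 37.0 and 35.2 CPM in CNTR and at 36.4, 37.2, 36.2 and 21.4 CPM in PAMH F3. In Synpo2 all libraries but PAMH F3 replicate 4 lay close together. Over the 7 libraries the coefficients of variation of the 9 contractile genes ran from 17.0% (Synpo2) to 41.5% (Cnn1).

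**Figure D1:**
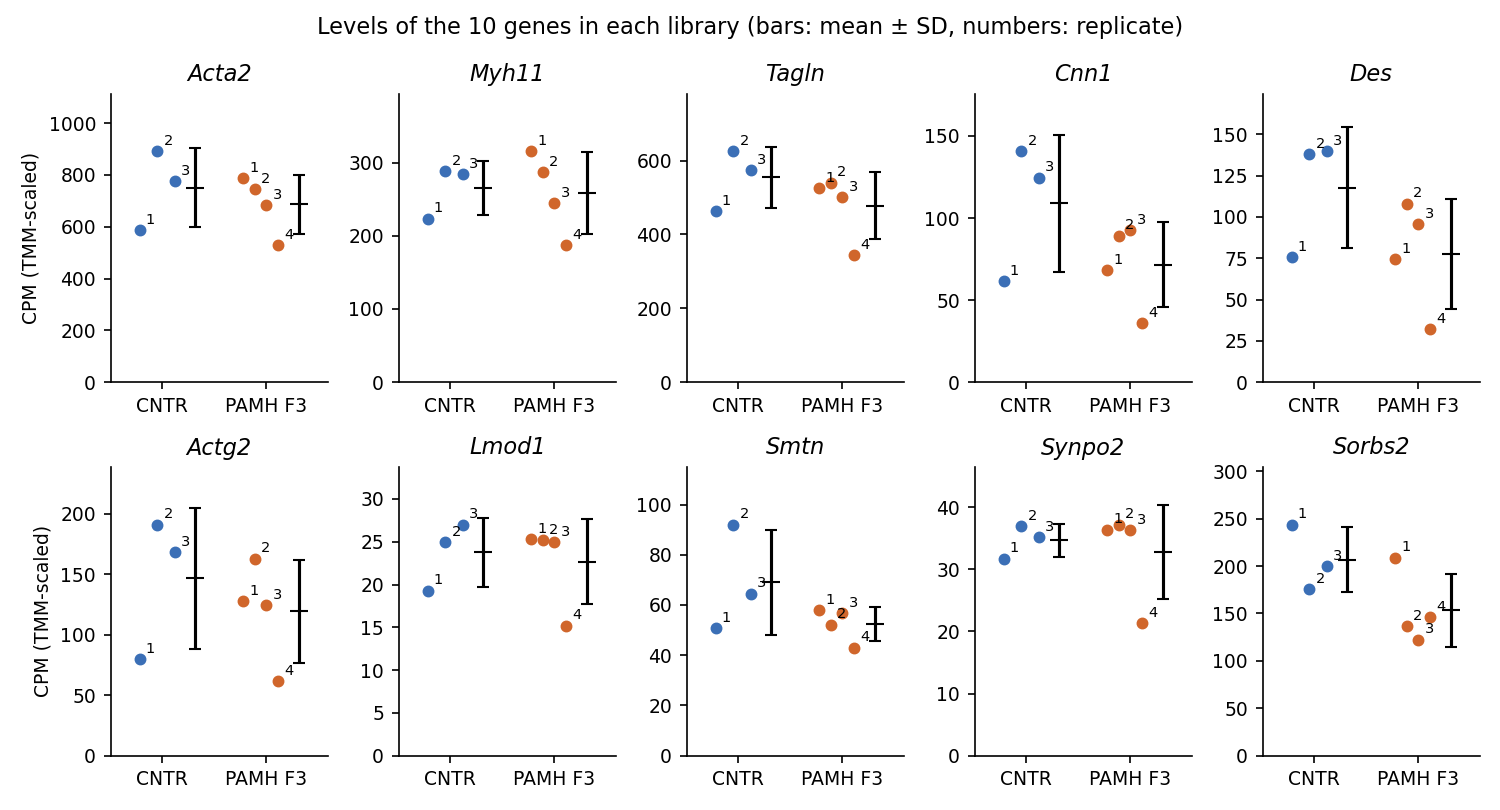
Level of each of the 10 genes in CPM scaled by TMM (linear axis from 0) in 3 CNTR (blue) and 4 PAMH F3 (orange) libraries, with the replicate number beside each point and the group mean ± SD as a black bar. PAMH F3 replicate 4 is the lowest library in all 9 contractile genes, and the groups overlap in every panel.

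Per length of the longest coding transcript, the order of the mean levels was Acta2 (351 ± 61.1 RPKM, SD over 7 libraries), Tagln (320 ± 56.4), Actg2 (98.3 ± 35.6), Myh11 (40.0 ± 6.89), Cnn1 (36.8 ± 15.3), Des (31.3 ± 12.6), Sorbs2 (27.8 ± 6.94), Smtn (17.6 ± 4.65), Lmod1 (5.86 ± 1.07) and Synpo2 (3.65 ± 0.619). Neighbors in this order did not always differ beyond their spread. Acta2 was above Tagln in 6 of 7 libraries, Myh11 was above Cnn1 in 4 of 7 and Des was above Sorbs2 in 4 of 7. The other neighbors kept their order in all 7 libraries. Counts were taken over all exons of a gene, and for Sorbs2 these span 27851 bases, against 6337 in the transcript used. In Smtn the lengths were 4380 and 3386 bases. The value of Sorbs2 per length, and its place in this order, may therefore be too high. The 2 actins together with transgelin were the most abundant of these transcripts. Per length, the myosin heavy chain was several times below Acta2 and Tagln. Actg2 was nearer to it but above it in all 7 libraries (means of 98.3 and 40.0 RPKM).

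Sorbs2 behaved differently from the contractile genes. It was at 244, 176 and 200 CPM in CNTR (207 ± 34.3, SD, n = 3) and at 209, 137, 122 and 146 CPM in PAMH F3 (153 ± 38.2, SD, n = 4). The highest library was CNTR replicate 1, which was next to the lowest in 8 of the 9 contractile genes, and PAMH F3 replicate 1 lay above 2 of the 3 CNTR libraries. The other 3 PAMH F3 libraries were below every CNTR library. The mean in PAMH F3 was 0.742 times that in CNTR.

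The comparison of the groups asks whether ovaries of the third generation after AMH exposure differ in these transcripts from control ovaries. With 2 surrogate variables in the model (estimated axes of variation between libraries, besides the group), 0 of the 10 genes passed an adjusted p of 0.05 in edgeR's quasi-likelihood test. No gene passed among all 18779 tested, where the smallest adjusted p was 0.111. At an unadjusted p under 0.05, 1 of the 10 was called, Sorbs2, which was lower in PAMH F3, against 7.64% of all genes tested in either direction and 3.89% in that direction. Its log2 fold change was -0.57 (SE 0.143, 95% confidence interval -0.90 to -0.23, unadjusted p = 0.00507, adjusted p = 0.511). Without surrogate variables it was -0.43 (SE 0.182, unadjusted p = 0.0424, adjusted p = 0.997). That level of p was reached by 3.95% of all genes, and by 2.84% with a lower level in PAMH F3. On these same libraries the study had called Sorbs2 lower in PAMH F3 at an adjusted p of at most 0.05. It used the Wald test of DESeq2 with variation estimated by sva, and another adjustment of p than here. The low unadjusted p of Sorbs2 is therefore not independent evidence of a difference. The study also reported a lower Sorbs2 level by qRT-PCR in ovaries of older PAMH F3 mice, and a methylation difference at the gene. Those assays were not analysed here.

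The difference in Sorbs2 was negative under each of the 26 alternative settings, between -0.70 and -0.29, but its call was not stable. DESeq2 with the same surrogate variables gave an adjusted p of 0.0324, where 0.299% of the genes fitted passed. Without PAMH F3 replicate 1 edgeR gave a log2 fold change of -0.70 (SE 0.0577) and an adjusted p of 0.021, where 0.199% of genes passed. Without CNTR replicate 1 the log2 fold change was -0.31 (SE 0.193, unadjusted p = 0.162). By mouse, the exact two-sided permutation test of the mean CPM over the 35 divisions gave p = 0.143 for Sorbs2, and the smallest p this design allows is 0.0286.

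For the 9 contractile genes the log2 fold changes with 2 surrogate variables had a median of -0.04 and were negative in 6, against a median of 0.00487 over all genes tested. None had an unadjusted p under 0.05 with or without surrogate variables, and with them the adjusted p ran from 0.741 to 0.998. The values were -0.0021 for Acta2, 0.03 for Myh11, 0.04 for Actg2, 0.03 for Lmod1 and -0.04 for Synpo2. Tagln was at -0.13, Smtn at -0.21, Cnn1 at -0.30 and Des at -0.39. The intervals were wide, since that of Des ran from -1.20 to 0.42 and that of Cnn1 from -0.92 to 0.32, whereas that of Acta2 ran from -0.36 to 0.35. A difference of the size seen in Des was therefore not detectable between these few mice.

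Without surrogate variables all 9 log2 fold changes were negative, with a median of -0.22, and the lowest were those of Cnn1 at -0.61 (95% confidence interval -1.38 to 0.17) and Des at -0.60 (-1.42 to 0.22). The direction for Myh11, Actg2 and Lmod1 thus depended on the surrogate variables. The 2 surrogate variables together accounted for between 15.3% (Myh11) and 72.8% (Smtn) of the variance of log2 CPM of a contractile gene, and the group alone for between 1.28% (Myh11) and 31.7% (Smtn). For Sorbs2 the surrogate variables accounted for 11.6% and the group for 43.4%. All 10 genes had a lower mean CPM in PAMH F3, which held for 49.1% of all genes tested, but these genes are not independent of each other, as the correlations below show.

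**Figure D2:**
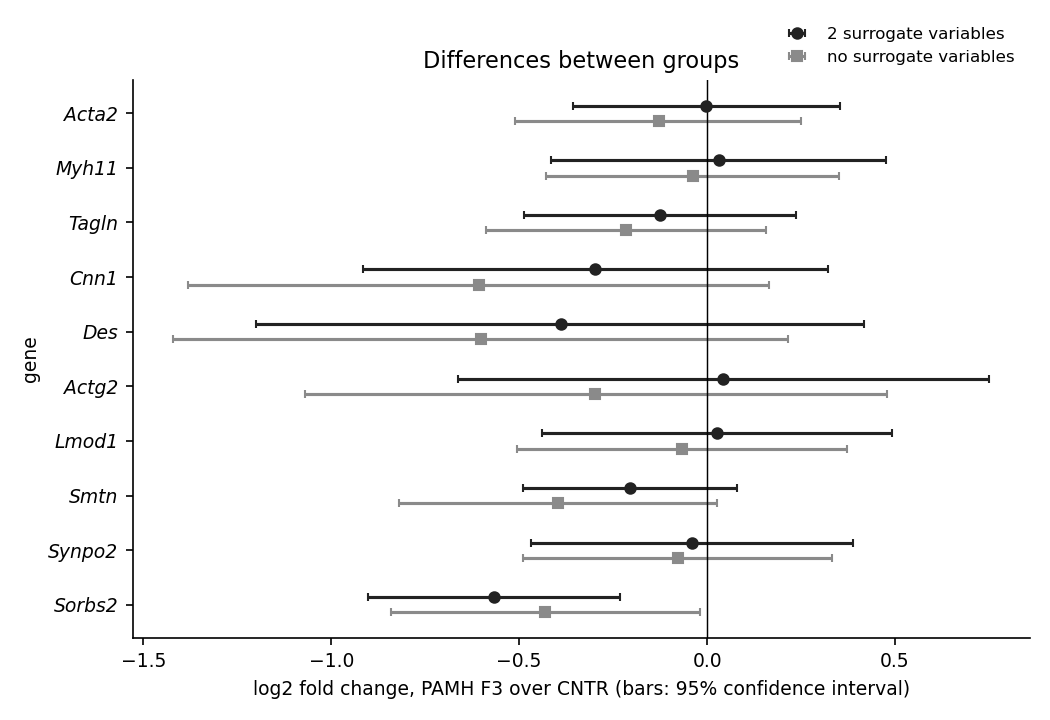
Log2 fold change of PAMH F3 over CNTR for each gene, with 2 surrogate variables (black circles) and without (gray squares), and 95% confidence intervals as bars. The intervals of all 9 contractile genes include 0 in both fits, and the interval of Sorbs2 lies below 0 in both.

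The groups did not separate in any of the 10 genes, where 4.25% of all genes tested had groups that did not overlap and 2.4% had PAMH F3 below CNTR. One library decided this for several of them. Without CNTR replicate 1, the PAMH F3 libraries lay below both remaining CNTR libraries in 5 of the 10 genes, Tagln, Cnn1, Des, Actg2 and Smtn, against 8.35% of all genes in that direction. In that fit with surrogate variables, 4 genes had an unadjusted p under 0.05, namely Cnn1 (log2 fold change -0.89, adjusted p = 0.06), Smtn (-0.55, adjusted p = 0.0982), Des (-0.85, adjusted p = 0.131) and Actg2 (-0.58, adjusted p = 0.285), against 17% of all genes. Without PAMH F3 replicate 4, Actg2 was at 0.37 and Lmod1 at 0.24, both with an unadjusted p under 0.05, against 6.4% of all genes. The direction in Actg2 and Lmod1 thus depended on which of these libraries was left out, and that in Sorbs2, Des and Smtn did not.

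The 9 contractile genes varied together from mouse to mouse. Relative to each gene's mean, their median level was 83.4%, 125% and 112% in CNTR replicates 1 to 3 and 103%, 109%, 98.2% and 65.8% in PAMH F3 replicates 1 to 4. PAMH F3 replicate 4 was lowest in 9 of 9 genes and CNTR replicate 1 next to lowest in 8 of 9, while CNTR replicate 2 was highest in 5. The corresponding values of Sorbs2 were 138%, 99.8% and 114%, followed by 119%, 77.5%, 69.4% and 82.8%.

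**Figure D3:**
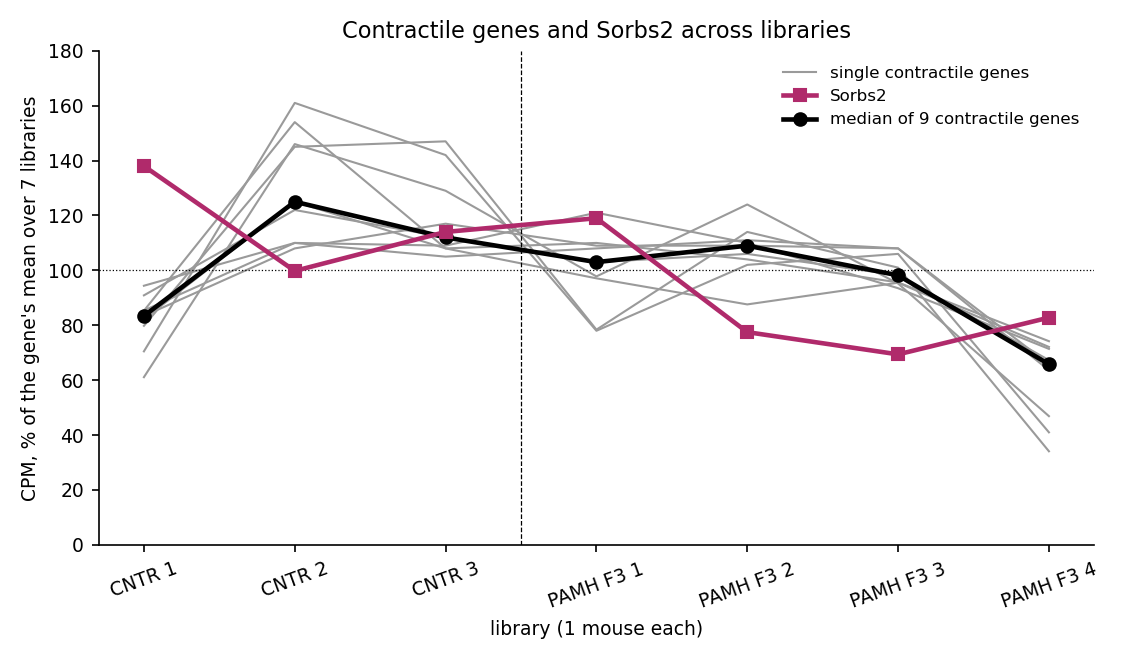
CPM of each gene as a percent of its mean over the 7 libraries, for the 9 contractile genes (gray lines), their median (black circles) and Sorbs2 (purple squares). Lines join the values of 1 gene and carry no order among libraries, and the median is lowest in PAMH F3 replicate 4 at 65.8%, where Sorbs2 is at 82.8%.

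Over the 36 pairs of contractile genes, Pearson's r of log2 CPM across the 7 libraries had a median of 0.881 and ran from 0.629 (Smtn with Synpo2) to 0.977 (Cnn1 with Des), and Spearman's rho had a median of 0.732. By the exact permutation test over all orders of the 7 libraries, adjusted over all 45 pairs, 29 pairs passed 0.05 by Pearson's r and 1 by Spearman's rho. For Cnn1 with Des, r = 0.977 had an exact permutation p of 0.00159 (adjusted 0.0102), and rho = 0.893 one of 0.0123 (adjusted 0.0503). As deviations from the group means the median r was 0.903, so that the relation held within the groups. It rested largely on 2 libraries. Without the 2 libraries farthest from the median of the first gene of a pair, r had a median of 0.547 and ran from -0.865 to 0.965, and without PAMH F3 replicate 4 and CNTR replicate 1 together the median was 0.298. Leaving out either of these alone gave 0.753 and 0.892.

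Sorbs2 did not share this pattern. Its r with the 9 contractile genes had a median of 0.0994 and ran from -0.062 (Actg2) to 0.191 (Myh11), with rho between -0.286 and 0.179. None passed by the exact permutation test, where the smallest adjusted p was 0.817. With 7 libraries a moderate correlation cannot be detected, and the median r changed to -0.286 without PAMH F3 replicate 4 and to 0.311 without CNTR replicate 1. Without the 2 libraries farthest from the median of the contractile gene, r ran from -0.507 (Des) to 0.793 (Myh11), with a median of 0.0384. The narrow range near 0 thus also rested on those libraries.

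**Figure D4:**
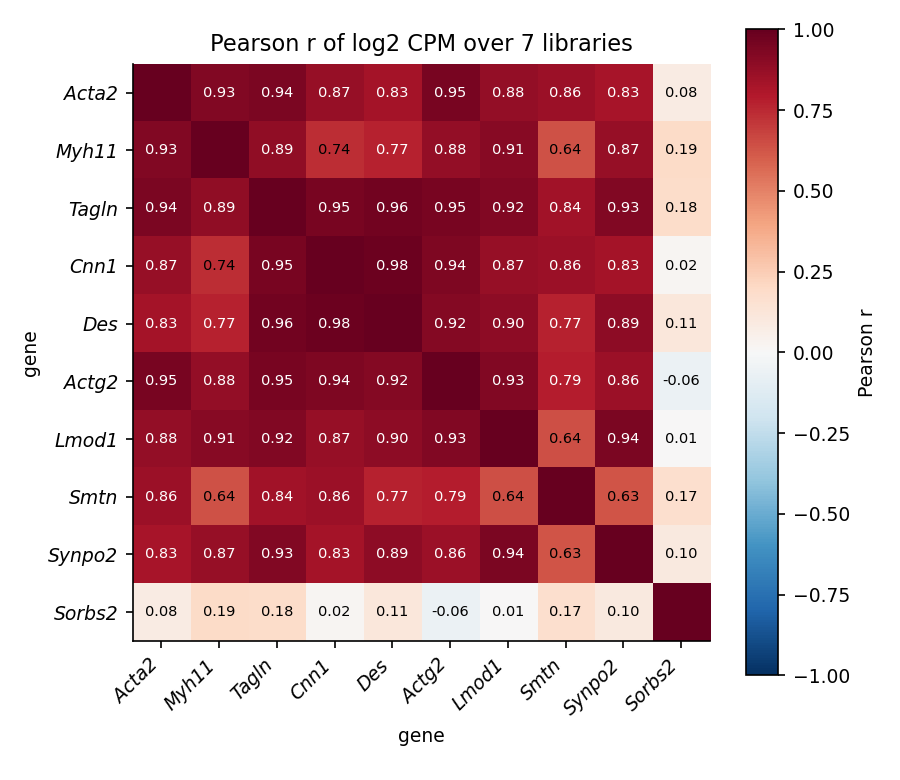
Pearson's r of log2 CPM over the 7 libraries for each pair of the 10 genes, with red for positive and blue for negative values. The block of 9 contractile genes holds values from 0.629 to 0.977, and the row of Sorbs2 holds values from -0.062 to 0.191.

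Other genes of the pathway were described from lists that hold no member. Of 22 further filament and adhesion genes of smooth muscle, 1 had a lower level in PAMH F3 at an unadjusted p under 0.05 and 0 a higher level, and none passed after adjustment. That gene was Synpo, for the actin-binding protein synaptopodin, with a log2 fold change of -0.18 (SE 0.0734, unadjusted p = 0.0395, adjusted p = 0.631). Pdlim7, for a PDZ and LIM domain protein bound to actin filaments, followed at -0.17 (SE 0.0792, unadjusted p = 0.069). The median of the list was -0.04, against 0.00487 over all genes. The most like Myh11 across libraries were Mylk, the myosin light chain kinase (r = 0.907), Tpm2, a tropomyosin (0.837), Pgm5, for aciculin of adherens junctions (0.813), and Myl9, the regulatory light chain (0.811). These 4 of 22 were named after their values were seen, and r above 0.8 with Myh11 was found for 0.911% of all 18778 other genes tested.

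Of 18 genes of contraction signalling, that is ion channels, cyclic GMP, kinases, myosin phosphatase and contractile receptors, 0 had an unadjusted p under 0.05 with surrogate variables and 2 without. Both genes had an adjusted p of 0.997 there. They were Ppp1r14a, which encodes the myosin phosphatase inhibitor CPI-17, and Oxtr, the oxytocin receptor. Ppp1r14a was at 2.65, 8.34 and 2.94 CPM in CNTR and at 2.41, 2.65, 2.06 and 2.23 CPM in PAMH F3. The groups did not overlap, but among the CNTR libraries replicate 2 alone lay far above PAMH F3, and with surrogate variables the adjusted p was 0.73. Oxtr was at 49.3 ± 6.80 CPM in CNTR and 37.9 ± 7.54 CPM in PAMH F3 (SD, n = 3 and 4), a log2 difference of -0.38 without and -0.31 with surrogate variables (adjusted p = 0.732 for the latter). The median r with Myh11 over this list was 0.0626, against 0.57 for the filament genes.

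Of 8 regulators around SRF and myocardin, none had an unadjusted p under 0.05. Myocd itself was at 7.504, 11.1 and 14.4 CPM in CNTR and at 16.0, 10.8, 9.82 and 11.4 CPM in PAMH F3, a log2 difference of 0.26 (SE 0.205, adjusted p = 0.809). The level of Myocd in PAMH F3 replicate 4 was near the middle of the libraries, and all 9 contractile genes were lowest there. Myocd was lowest in CNTR replicate 1, which was next to lowest in 8 of the 9 contractile genes. Both Myocd and Myh11 were highest in PAMH F3 replicate 1. Across the 7 libraries r of Myocd with Myh11 was 0.556, and the median r with Myh11 over this list was 0.346. The part of Myocd in the levels of the contractile genes was not tested. Srf was at 34.8 ± 7.58 CPM in CNTR and 29.9 ± 3.36 CPM in PAMH F3 (SD, n = 3 and 4), a log2 difference of -0.07 (adjusted p = 0.905).

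Sorbs3, a paralog of Sorbs2 that encodes the adaptor vinexin, was at 103 ± 2.84 CPM in CNTR and 98.1 ± 7.01 CPM in PAMH F3 (SD, n = 3 and 4). Over the 4 lists, counting one of the Sorbs family and its partners, 2 of 56 genes had an unadjusted p under 0.05, or 3.57%, against the 7.64% of all genes.

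Across libraries Sorbs2 was more like markers of several other cells than like the filament genes. Its median r was 0.789 over 8 pericyte markers, 0.761 over 7 endothelial markers, 0.696 over 5 luteal markers and 0.658 over 4 markers of mesothelium and surface epithelium, and it was 0.194 over the 22 filament genes. By gene, r was 0.972 for Higd1b and 0.804 for Rgs5, both pericyte markers, and 0.968 for Pecam1 and 0.905 for Cdh5, which encode endothelial junction proteins, and 0.875 for Ptgfr and 0.814 for Prlr, which encode hormone receptors of luteal cells. Within these lists r was lowest for Kcnj8 of pericytes (0.128) and Cldn5 of endothelium (0.391). It was 0.0617 for Star and 0.0125 for Akr1c18 of luteal cells, and -0.198 for Krt19 of mesothelium and surface epithelium. Higd1b had between 60 and 81 counts in a library. These genes were named after their values were seen. An r above 0.8 with Sorbs2 was found for 4 of the 8 pericyte genes, 2 of the 7 endothelial genes and 2 of the 5 luteal genes, against 2.27% of all genes tested. These values are descriptions over 7 mice whose libraries are shared by all genes.

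**Figure D5:**
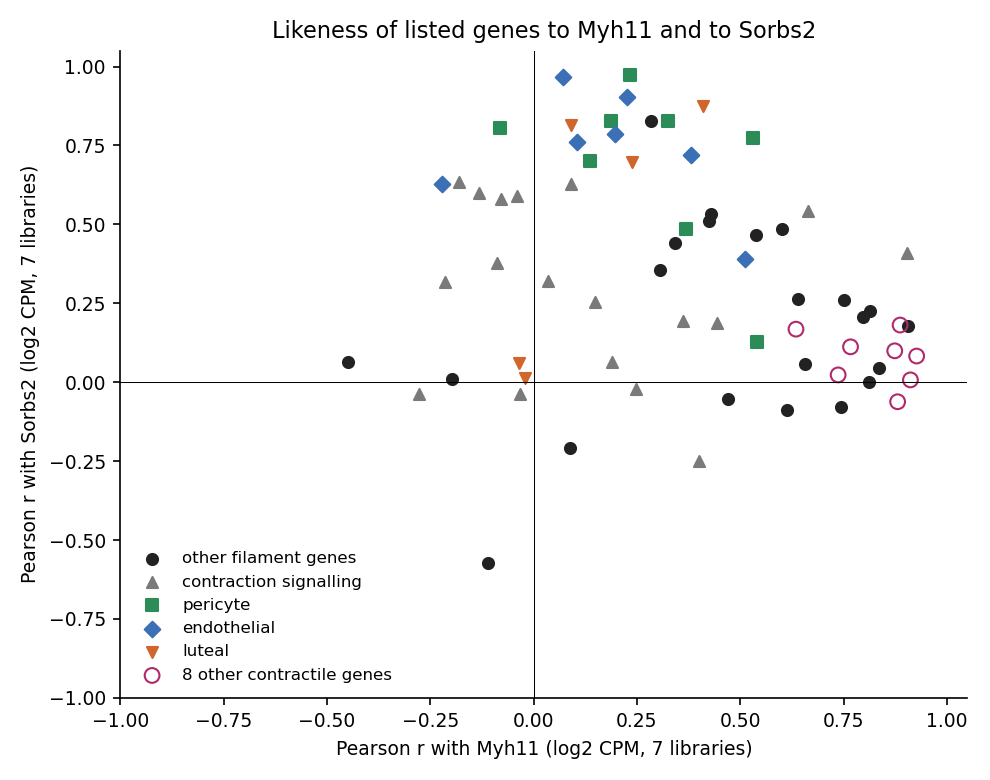
Pearson's r with Myh11 (horizontal) and with Sorbs2 (vertical) over the 7 libraries for genes of 5 lists and for the 8 other contractile genes (open circles). The contractile genes lie to the right near 0 on the vertical axis, and most pericyte (green) and endothelial (blue) genes lie high, with median r values of 0.789 and 0.761 with Sorbs2.

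The genes outside all lists that were most like Myh11 were Stard5 (r = 0.977), Adamts3 (0.969), Lypd8 (0.96), Fmnl1 (0.956), Ldb3 (0.95), Irak3 (0.945), Sri (0.945) and Ppargc1b (0.941). Ldb3 encodes a Z-disc protein and Sri encodes sorcin, a calcium-binding protein. Lypd8 had as few as 1 count in a library. Most like Sorbs2 were 6330403L08Rik (r = 0.993), Kalrn (0.99), Bace1 (0.986), Lgalsl (0.983) and Cdc42 (0.982). Kalrn, which encodes the guanine nucleotide exchange factor kalirin, was at 49.3 ± 6.96 CPM in CNTR and 36.8 ± 11.1 CPM in PAMH F3 (SD, n = 3 and 4). Of the 18778 other genes tested, 26 had r above 0.9 with Myh11 and 115 with Sorbs2, and these 7 libraries also served to choose them.

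Markers of other cells that a dissected ovary can hold were set beside these results. In bulk tissue, fewer cells of a type and less RNA per cell cannot be told apart. Summed over 6 adipocyte markers, the level was between 235 and 775 CPM in CNTR and between 98.9 and 552 CPM in PAMH F3, and the lowest library was PAMH F3 replicate 4. Summed over 6 markers of oviduct epithelium, it was between 2994 and 5299 CPM in CNTR and between 2574 and 6418 CPM in PAMH F3. This sum was also lowest in PAMH F3 replicate 4, but it was mostly Ovgp1, the oviductal glycoprotein. Ovgp1 was at 2394 CPM there and between 2832 and 6172 CPM elsewhere. The other oviduct markers were not lowest in that library. Foxj1 was lowest in PAMH F3 replicate 1 (64.0 CPM), and Tekt1, Tekt4, Dynlrb2 and Pax8 were lowest in CNTR replicate 3. Tekt4, Dynlrb2 and Pax8 were next to lowest in PAMH F3 replicate 4, at 10.72, 36.43 and 25.37 CPM. In CNTR replicate 3 these genes were at 10.03, 33.55 and 23.71 CPM. Foxj1 and Tekt1 were not next to lowest in PAMH F3 replicate 4. CNTR replicate 1, which was low in contractile genes, had 775 CPM of adipocyte markers, the highest sum. Over the 7 libraries, r of the log2 sum with Myh11 was 0.218 for adipocyte and 0.205 for oviduct markers. The sum of 5 stromal fibroblast markers was closer to Myh11 (r = 0.761), at between 1520 and 1572 CPM in CNTR and between 1158 and 1490 CPM in PAMH F3, and that of 4 mesothelial and surface epithelial markers had r = 0.406, at between 390 and 523 CPM and between 296 and 451 CPM. Both sums were also lowest in PAMH F3 replicate 4, but not each of their genes. Pdgfra and Tcf21 of stroma were lowest in PAMH F3 replicate 3. Lrrn4 and Msln of mesothelium were lowest in CNTR replicate 2. The other genes of both lists were lowest in PAMH F3 replicate 4. The sum of 5 oocyte markers ran in the opposite direction (r = -0.746), at 333 CPM in PAMH F3 replicate 4, its highest value, and between 207 and 327 CPM in the others. The part of adjacent tissue or of other ovarian cells in these levels was not tested. Markers of striated muscle summed to between 6.55 and 9.18 CPM, and Myh4, a myosin of fast skeletal muscle, was at 0 in 6 of 7 libraries.

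Of the 64 marker genes tested for cells other than smooth muscle, 9 were lower in PAMH F3 at an unadjusted p under 0.05 and 0 higher, that is 14.1% against 7.64% of all genes, and none passed after adjustment. Among them were Rgs5 (log2 fold change -0.40, adjusted p = 0.511) of pericytes, and Pecam1 (-0.44, adjusted p = 0.511), Cldn5 (-0.51, adjusted p = 0.511) and Emcn (-0.21, adjusted p = 0.599) of endothelium. The other 5 were Ptgfr (-0.95) and Prlr (-0.36) of luteal cells, Amh (-0.34) and Foxl2 (-0.25) of granulosa cells and Tcf21 (-0.39) of stroma, so that the calls were not confined to vascular markers. The endothelial sum was between 282 and 311 CPM in CNTR and between 223 and 315 CPM in PAMH F3, and the pericyte sum between 295 and 381 CPM and between 254 and 366 CPM. Markers of granulosa and luteal cells, which define an adult ovary, were high, with Inha between 1318 and 2130 CPM and Star between 311 and 583 CPM. Of the theca markers, Cyp17a1, for a steroidogenic enzyme, was between 141 and 428 CPM and Ptch1, the hedgehog receptor, between 130.2 and 175 CPM. Insl3 was counted at or near 0 in every library, with at most 0.15 CPM. Genes overlapping Insl3 were not examined, so that this count may not give its level. The part of vascular cells in the level of Sorbs2 was not tested.

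Shared sequence touched these genes little. Of the 50-base stretches of the longest coding transcript, 0.4% in Myh11 and 0.352% in Acta2 also occurred in other genes, among them Myh9 and Actg1, and the share was 0.0546% in Synpo2 and 0 in the other 7 genes. Tagln overlaps Pcsk7 on the opposite strand, which had between 38.8 and 46.5 CPM, and the strand setting of the counting is not given in the sources used here. Sorbs2 overlaps Gm45457 on the same strand, at no more than 2.29 CPM, and reads in the shared part would have been counted for neither gene.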

How the data were processed

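Poly(A) RNA of whole ovaries from 3 CNTR and 4 PAMH F3 mice was sequenced by the authors as stranded single-end libraries. Per the labels, reads were demultiplexed with bcl2fastq 2.17.1.14, aligned to mm10 with STAR 2.5.3a and counted with HTSeq 0.6.1p1, in union mode on uniquely aligned reads according to the study's methods. The authors deposited raw counts per Ensembl gene, without normalization. The annotation release and strand setting are not given in the sources used here. The labels give the AMH injections as subcutaneous and the study's methods as intraperitoneal.

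Gene names came from GENCODE M21, which matched 55394 of 55487 rows, and the summary lines were left out. Counts were scaled by TMM over all gene rows. The groups were tested in R 4.3.3 with edgeR 4.0.16 (quasi-likelihood F test, robust fitting off, filterByExpr with a minimum count of 10, 18779 genes) with 2 surrogate variables from svaseq in sva 3.50.0, which left 3 residual degrees of freedom. The Benjamini-Hochberg adjustment ran over all genes tested, with a threshold of 0.05. The number of 2 was taken from an earlier account of these data, and num.sv gave 1 with random seed 1. DESeq2 1.42.0 was an alternative. Correlations used log2 CPM with a prior count of 2. Each mouse is 1 replicate. The edgeR test was checked on simulated data.

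The members and lists were chosen with earlier results of these data known. Named were the 10 members, the 2 genes with the smallest unadjusted p and defining genes of each list, and the 8 and 5 genes outside the lists with the highest r with Myh11 and Sorbs2, and genes named otherwise are said to be so or complete a count of 5 or fewer. The alternatives changed the surrogate variables, tool, normalization, filter, robust fitting, replicate block and libraries. A GC correction, and leaving out PAMH F3 replicate 4 with CNTR replicate 1, were chosen after seeing the data. The other assays of the study were not analysed here. A gene of the lists is not reported here.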

Additional observations from a re-analysis of the deposited data

Results flagged for a closer look

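In the group of 4 PAMH F3 libraries, 2 of 23 genes examined had 1 library farther from the others than Dixon's 95% critical value allows for 4 samples. Lmod1 was at 15.2 CPM in PAMH F3 replicate 4, whereas the other 3 libraries lay between 25.0 and 25.3 CPM. Synpo2 was at 21.4 CPM in the same library, whereas the others lay between 36.2 and 37.2 CPM. Chance alone gives such a gap in about 1 of 20 groups, and the genes examined vary together.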

How the results depend on the processing

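None of the 10 genes passed the adjusted threshold, and 1 did with DESeq2 and 2 surrogate variables, against 0.299% of the genes fitted. Leaving out 1 library gave between 0 and 1, with 1 without PAMH F3 replicate 1, against 0.199% of all genes. At an unadjusted p under 0.05 the count was 1, against 7.64% of all genes. Leaving out 1 library gave between 0 and 4, with 4 without CNTR replicate 1, against 17% of all genes. Replicate numbers did not pair the libraries (r of the deviations of same-numbered libraries 0.0957, 0.0965 and -0.248). With a replicate block and no surrogate variables, 2 of the 10 and 5 of the marker genes had an unadjusted p under 0.05. In that fit 2.38% of all genes reached this p, and the log2 fold change of Synpo2 turned to 0.0824. For the 4 other smooth muscle lists the count at an unadjusted p under 0.05 was 2. It was 4 with 3 surrogate variables (8.92% of all genes). It was 1 with DESeq2 and 2 surrogate variables, TMM over filtered genes, robust fitting, at least 10 counts in every library or the GC correction. In those fits between 3.23% and 7.74% of all genes reached this p. Leaving out 1 library gave between 0 and 16, with 16 without CNTR replicate 1, against 17% of all genes. For the marker lists the count was 9. It was 16 with 3 surrogate variables (8.92% of all genes) and 17 without a filter (5.76%). Leaving out 1 library gave between 4 and 23, with 23 without PAMH F3 replicate 1, against 10.6% of all genes. Over all these lists, between 0 and 2 genes passed the adjusted threshold when 1 library was left out, against at most 0.204% of all genes. Groups did not overlap in between 0 and 5 of the 10 genes when 1 library was left out. Without CNTR replicate 1 it was 5, against 8.35% of all genes in that direction.

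The median r of the contractile pairs ran from 0.753 to 0.94 with 1 library left out, and was 0.298 without PAMH F3 replicate 4 and CNTR replicate 1.

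Directions near 0 turned. Without surrogate variables, with 1 surrogate variable, with DESeq2 and no surrogate variables and with the GC correction, in this order, the log2 fold change of Myh11 was -0.0383, -0.0385, -0.0356 and -0.00988, that of Actg2 -0.297, -0.32, -0.294 and -0.265, and that of Lmod1 -0.0671, -0.0735, -0.0647 and -0.037. With TMM over filtered genes that of Acta2 was 0.000183. With 1 library left out, with and without surrogate variables, the log2 fold change ran from -0.275 to 0.143 in Acta2, from -0.148 to 0.205 in Myh11, from -0.325 to 0.0347 in Tagln, from -0.891 to 0.0288 in Cnn1, from -0.588 to 0.371 in Actg2, from -0.193 to 0.236 in Lmod1 and from -0.144 to 0.138 in Synpo2. Des, Smtn and Sorbs2 kept a negative direction under all 26 alternatives. The cause of these changes was not tested.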
